A study of Homo sapiens with 18 samples.

Results

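Cholesterol and fatty acids are built from the same precursor, acetyl-CoA, and the genes for both routes were followed here in newly made RNA of neuroblastoma cells. The set holds 35 genes, chosen by symbol from the 28063 genes that the count files list. It comprises 19 genes of sterol synthesis, 8 genes of sterol transport and regulation, and 8 genes of fatty acid synthesis. All 35 were listed in the files and all 35 passed the filter on low counts that left 12853 genes for testing. The rule names genes by function and uses no measured value, but the set was picked with earlier results of these data known.

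There were 18 libraries in 9 groups of 2. The established neuroblastoma lines KELLY, SK-N-DZ and IMR-32, all wild type, received 1 uM BRM014 or the same volume of the vehicle DMSO; BRM014 inhibits SMARCA4 and its paralogue SMARCA2, the ATPases of the BAF chromatin remodelling complexes. IMR-32 cells engineered so that SMARCA4 carries a mini auxin-inducible degron (SMARCA4-mAID), a tag through which auxin triggers breakdown of the protein, received 500 uM auxin or its vehicle ethanol. These 8 groups were all given 500 uM 4-thiouridine (4sU), a uridine analogue that marks RNA made while it is present, for 2 h before harvest; the remaining group was KELLY cells with neither 4sU nor another treatment. IMR-32 cells grew in MEM and the other lines in DMEM, both with serum, a source of lipoprotein cholesterol. How long BRM014 or auxin was applied, and whether the engineered line is a single clone, is not stated in the labels.

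In the mevalonate pathway acetyl-CoA units are joined by ACAT2, HMGCS1 and later enzymes into isoprenoids, SQLE and LSS turn squalene into the first sterol, and CYP51A1, MSMO1, SC5D, DHCR7 and others trim it to cholesterol. In the fatty acid route ACLY makes cytosolic acetyl-CoA, ACACA and FASN build saturated chains, ELOVL6 lengthens them, and SCD, FADS1 and FADS2 insert double bonds. The transcription factors SREBF2 and SREBF1 drive both routes when membrane sterol is low; SCAP escorts them to the Golgi and INSIG1 and INSIG2 hold them back when sterol is plentiful.

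SREBF1 and SREBF2 proteins bind sterol regulatory elements, often next to a CCAAT box bound by NF-Y. Promoter windows of 300 bases, 250 before to 50 after a listed start, were found for 31 of the 35 genes in RefSeq on GRCh38.p14. None was found for FDFT1, SQLE, ACAT2 or FASN. The first start listed for a gene was used, whereas the 35116 promoters compared below took every listed start, so the shares are not fully alike. This start can differ from the gene bound in GENCODE v29. The IDI1 window, from 1056655 on chromosome 10, lies beyond the gene's bound at 1049170. Others, such as those of ACLY and FADS2, lie inside the gene. The letters CACNCCAC, the core of such an element, occurred on either strand in 5 of the 31 windows (16.1%; SC5D, INSIG1, SREBF2, ABCA1 and SCD) and in 5.87% of 35116 promoters of the same length. The longer form TCACNCCAC, which contains that core, occurred in SREBF2 alone (3.23% of the windows, against 1.13% of all promoters). CCAAT occurred in 18 windows (58.1%, against 34.6%). The other letters counted were also more frequent than in all promoters. GGGCGG, a GC box, occurred in 29 windows (93.5%, against 45%), and CACGTG, an E-box, in 5 (16.1%, against 7.26%). A higher share was thus not particular to the core and CCAAT letters. These letter matches are descriptions and not measured binding sites. The windows of 4 genes on which the results below turn are shown 5′ to 3′ on the gene's strand, with CCAAT and CACNCCAC matches of either strand in capitals: SCD and ACLY for the fatty acid genes that fell, MSMO1 for the sterol genes that rose in KELLY, and INSIG1 for the sterol sensor. They lie at chr10:100346983-100347282 (plus strand) for SCD, chr17:41918973-41919272 (minus strand) for ACLY, chr4:165327419-165327718 (plus strand) for MSMO1 and chr7:155297628-155297927 (plus strand) for INSIG1.
SCD: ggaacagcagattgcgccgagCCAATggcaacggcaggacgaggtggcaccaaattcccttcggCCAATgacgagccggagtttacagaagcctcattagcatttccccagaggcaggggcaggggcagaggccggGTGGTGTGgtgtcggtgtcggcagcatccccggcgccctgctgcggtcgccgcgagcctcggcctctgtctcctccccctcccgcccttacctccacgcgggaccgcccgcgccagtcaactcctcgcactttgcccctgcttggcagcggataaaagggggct
ACLY: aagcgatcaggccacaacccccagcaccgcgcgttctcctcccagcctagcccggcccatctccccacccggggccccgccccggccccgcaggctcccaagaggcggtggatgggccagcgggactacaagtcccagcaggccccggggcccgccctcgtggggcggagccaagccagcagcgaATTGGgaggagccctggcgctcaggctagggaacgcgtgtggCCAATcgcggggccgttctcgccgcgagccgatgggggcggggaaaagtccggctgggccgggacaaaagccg
MSMO1: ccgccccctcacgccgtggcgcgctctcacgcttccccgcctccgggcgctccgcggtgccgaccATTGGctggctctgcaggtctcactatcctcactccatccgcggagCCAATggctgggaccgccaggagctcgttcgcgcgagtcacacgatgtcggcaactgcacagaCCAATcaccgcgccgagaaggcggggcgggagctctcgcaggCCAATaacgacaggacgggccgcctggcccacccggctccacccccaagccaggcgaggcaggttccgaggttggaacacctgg
INSIG1: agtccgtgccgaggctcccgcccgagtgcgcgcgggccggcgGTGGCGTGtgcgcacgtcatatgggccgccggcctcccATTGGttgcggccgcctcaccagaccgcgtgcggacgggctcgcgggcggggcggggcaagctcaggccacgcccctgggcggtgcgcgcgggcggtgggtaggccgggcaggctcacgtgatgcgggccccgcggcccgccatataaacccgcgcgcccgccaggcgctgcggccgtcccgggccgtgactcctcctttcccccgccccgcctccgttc
The SCD window holds a core match 114 bases before the start and CCAAT matches 229 and 186 bases before it. The INSIG1 window holds a core match 208 bases before the start and a CCAAT match at 170. ACLY has CCAAT matches at 65 and 23 bases before the start and MSMO1 at 185, 139, 76 and 34, without the core letters in these windows.

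Labelled libraries held 724913 to 1740475 gene counts, and the 35 genes took 0.478% to 0.81% of them. Totals were lower with BRM014 in IMR-32 (741970 and 775064, against 1438139 and 1148208 with DMSO) and in SK-N-DZ (724913 and 758288, against 1589230 and 1740475), but not in KELLY (1505376 and 1512030, against 1590402 and 1235931). SMARCA4 itself, whose loss in the degron line occurs at the protein and need not show in RNA, was not called in any of the 4 treatments; its mean level was 98.8 CPM (counts scaled to a common library total over the tested genes) in IMR-32 with DMSO and 809 CPM in SMARCA4-mAID cells with ethanol. Adrenergic neuroblastoma markers (9 genes) summed to 5350 to 13600 CPM in every labelled library, although DBH and TH were near 0 in IMR-32 with DMSO (3 and 4 counts of DBH, 0 and 1 of TH). MYCN had the most counts of this list in every labelled library, so the sum largely reflects MYCN. In KELLY with DMSO it had 12024 and 7844 counts, and HAND2 followed with 2118 and 1461. Single markers of this list went different ways with BRM014. In KELLY, DBH had 351 and 284 counts with DMSO and 52 and 36 with BRM014, TH 197 and 89 against 1 and 0, and CHGA 312 and 243 against 25 and 51. MYCN, PHOX2A and TBX2 counts were lower there too. ISL1 rose in KELLY from 602 and 525 to 1942 and 2119 counts, and HAND2 and GATA3 overlapped. In SK-N-DZ, DBH had 257 and 344 counts with DMSO and 5 and 4 with BRM014. Library totals fell there as well, and the marker sum was 11400 and 11600 CPM with DMSO and 12600 and 13600 with BRM014. The part of these markers in the results on the lipid genes was not tested. Lists of Schwann, blood and endothelial, and liver and adipose markers, 4 genes each, summed to at most 12.6 CPM, with S100B, HBB and PECAM1 at 0 in all labelled libraries, and 6 mesenchymal or fibroblast markers to 69.1 to 308 CPM.

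BRM014 lowered several fatty acid synthesis genes in IMR-32 and SK-N-DZ, whereas in KELLY several sterol synthesis genes rose. In IMR-32, 14 of the 35 genes were called at an adjusted p below 0.05 (edgeR quasi-likelihood test, Benjamini-Hochberg over all tested genes), 3 higher and 11 lower, where 12.8% of all tested genes were called (6.26% higher and 6.57% lower). In SK-N-DZ, 13 were called, 2 higher and 11 lower, against 19.4% of all genes (9.88% higher and 9.55% lower). In KELLY, 8 were called, 6 higher and 2 lower, against 11.6% of all genes (6.57% higher and 4.98% lower). With auxin a single gene, ACLY, was called, lower, against 2.19% of all genes (1.03% higher and 1.16% lower). The median log2 fold change of the 35 genes was -0.41 in IMR-32, -0.34 in SK-N-DZ, 0.19 in KELLY and -0.13 with auxin, where the median over all tested genes was -0.02, -0.04, 0 and 0. The IMR-32 median was -0.17 after thinning to equal totals and with an offset for transcript length and GC content, the SK-N-DZ median -0.12 with that offset. In KELLY it ranged from 0.1 without DMSO replicate 2 to 0.28 without DMSO replicate 1, and with auxin it was -0.08 without ethanol replicate 1. Counts come from whole cultures, so fewer labelled cells and less new RNA per cell cannot be told apart, and a change shared by all genes would not show.

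**Figure D1:**
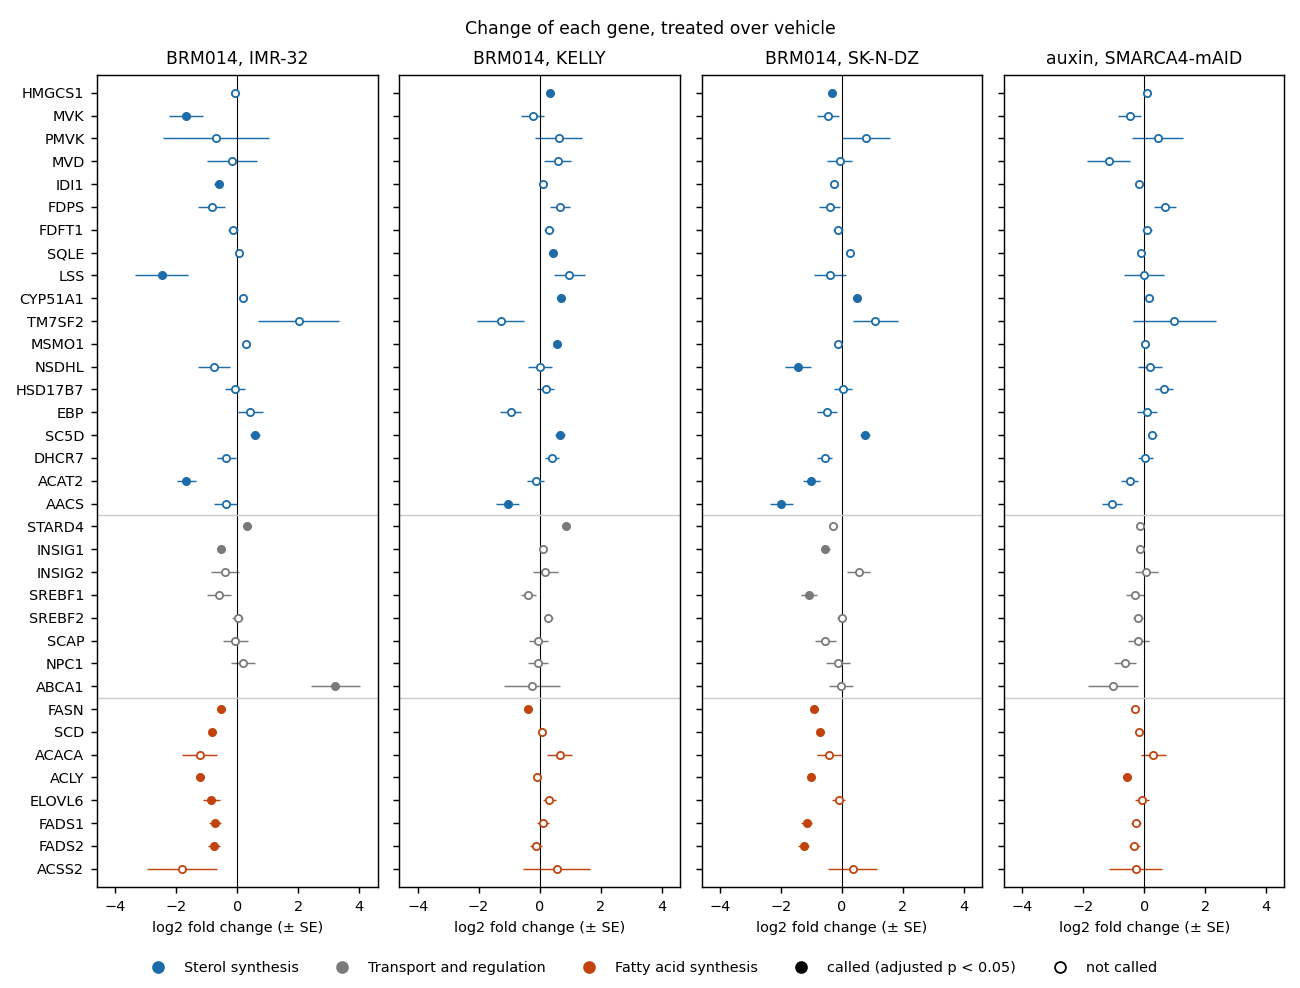
Log2 fold change of each of the 35 genes, treated over vehicle, in the 4 treatments (x axis; bars are 1 standard error; filled points passed an adjusted p below 0.05). All 8 fatty acid genes (orange) lie below 0 in IMR-32, and the filled points in KELLY lie mostly above 0 among the sterol genes (blue).

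The number of calls in IMR-32 rested on every library: 6 genes were called without BRM014 replicate 1, 8 without BRM014 replicate 2, 7 without DMSO replicate 1 and 9 without DMSO replicate 2. In KELLY the count fell to 4 without BRM014 replicate 1 and to 5 without either DMSO library. Thinning all libraries to 724913 counts left 13 calls in IMR-32, 6 in KELLY and 13 in SK-N-DZ. The length and GC offset left 9 calls in IMR-32.

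The fatty acid sums were lower with BRM014 in IMR-32 and SK-N-DZ and not in KELLY. The 8 genes summed to 2710 and 2560 CPM in the 2 IMR-32 DMSO libraries and to 1410 and 1500 with BRM014, a fall of the mean from 2640 ± 111 to 1450 ± 64.9 CPM (SD, n = 2). In SK-N-DZ the sum was 3360 and 3320 CPM with DMSO and 2000 and 1750 with BRM014. In KELLY the values overlapped, 2060 and 1760 CPM with DMSO and 1890 and 1920 with BRM014. SCD had the highest CPM of the 8 genes in each of these libraries, so the sum weighs SCD most. In IMR-32, 6 of the 8 were called lower and none higher, with a median log2 fold change of -0.84; in SK-N-DZ, 5 of 8 were lower, with a median of -0.82; in KELLY, 1 of 8 was lower, with a median of 0.1. Of all tested genes, 6.57% were called lower in IMR-32, 9.55% in SK-N-DZ and 4.98% in KELLY. The IMR-32 count fell to 4 of 8 with the offset, which lost FASN and FADS2, and to 3 of 8 without BRM014 replicate 1 (ELOVL6, FADS1 and FADS2 lost) or DMSO replicate 1 (FASN, FADS1 and FADS2 lost). In SK-N-DZ the offset lost FASN from the fatty acid calls. The single KELLY call, FASN, was lost in the settings named with that gene.

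**Figure D2:**
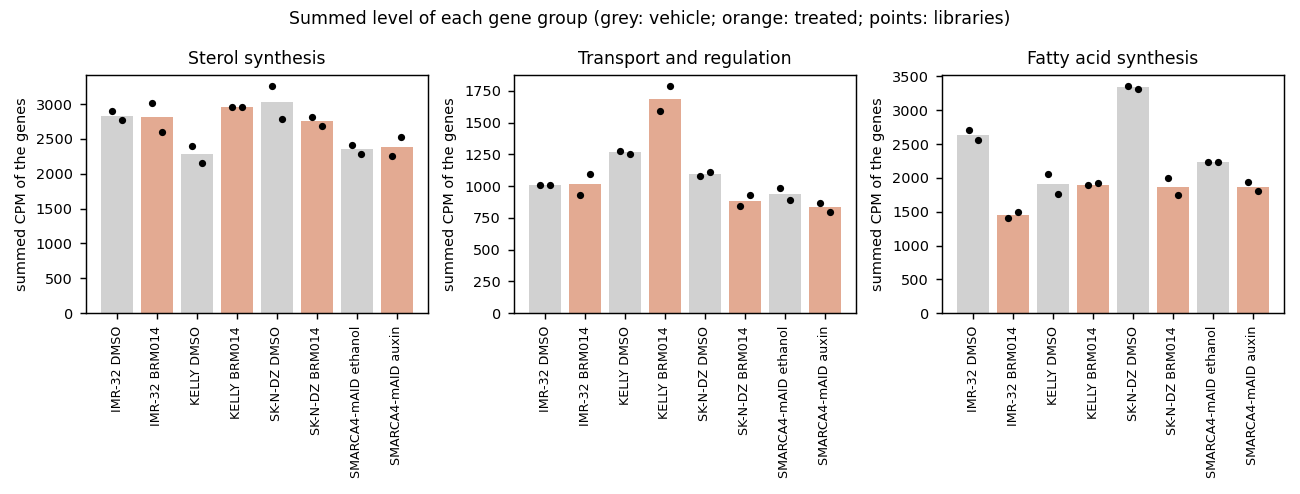
Summed CPM of the genes of each group in every labelled library (points) with the mean of 2 libraries (bars), vehicle in grey and treated in orange. The fatty acid sums of IMR-32 and SK-N-DZ are lower with BRM014 in both libraries, while the KELLY sterol sum is higher, 2960 and 2960 CPM against 2400 and 2150.

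ACLY, the enzyme that splits citrate to give cytosolic acetyl-CoA, stood at 538 and 502 CPM in IMR-32 with DMSO and at 222 and 221 with BRM014. In SK-N-DZ it stood at 391 and 363 CPM with DMSO and 174 and 195 with BRM014. The treated libraries were thus below both control libraries in each line, with log2 fold changes of -1.23 (SE 0.13, adjusted p = 8.19e-13) and -1.03 (SE 0.13, adjusted p = 6.66e-10). In KELLY ACLY was 314 and 285 CPM with DMSO and 277 and 290 with BRM014, which overlapped (log2 fold change -0.08, SE 0.12).

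SCD, which puts the first double bond into saturated acyl chains, gave the highest level of the set per kilobase of exon in every vehicle group. It was 1310 and 1260 CPM in IMR-32 with DMSO and 681 and 759 with BRM014 (log2 fold change -0.84, SE 0.09, adjusted p = 8.24e-12). In SK-N-DZ it went from 1370 and 1310 to 892 and 736 CPM (-0.72, SE 0.09, adjusted p = 5.86e-10). Both falls exceeded the spread between the libraries. In KELLY SCD was 1020 and 892 CPM with DMSO and 1050 and 998 with BRM014, and was not called (0.09, SE 0.09). The calls of ACLY and SCD in IMR-32 and SK-N-DZ held under all 13 other settings.

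FADS1 and FADS2, the desaturases of polyunsaturated fatty acids, fell in SK-N-DZ and IMR-32. FADS1 was 260 and 261 CPM with DMSO and 112 and 121 with BRM014 (-1.16, SE 0.19, adjusted p = 9.24e-07), and FADS2 was 283 and 286 CPM with DMSO and 136 and 102 with BRM014 (-1.26, SE 0.18, adjusted p = 2.85e-08). In IMR-32 FADS1 was 210 and 191 CPM with DMSO and 111 and 129 with BRM014 (-0.74, SE 0.20), and FADS2 was 205 and 175 against 95.8 and 126 (-0.77, SE 0.19). No treated library reached a control library of its line. In KELLY both were low with DMSO (FADS1 89.3 and 60.8 CPM, FADS2 85.1 and 86.7) and overlapped their BRM014 values (64.0 and 98.6 CPM, and 87.6 and 71.7). The 2 genes share exon bases on opposite strands on chromosome 11, and as the strand setting of the counting is not given, their reads could be shared. FADS2 also shares exon bases with FEN1 on the same strand. In IMR-32 both calls were lost without BRM014 replicate 1 or DMSO replicate 1, and FADS2 also with the length and GC offset (-0.40).

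FASN, the multienzyme that builds palmitate, was called lower in all 3 lines. It went from 343 and 305 to 243 and 204 CPM in IMR-32 (-0.54, SE 0.14, adjusted p = 0.00366), from 440 and 326 to 271 and 317 CPM in KELLY (-0.39, SE 0.12, adjusted p = 0.0242), and from 898 and 918 to 548 and 417 CPM in SK-N-DZ (-0.91, SE 0.12, adjusted p = 2.38e-09). With auxin it was 258 and 267 CPM against 296 and 345 with ethanol, and was not called (-0.29, SE 0.13). These calls were lost under a correction: the offset for length and GC brought the log2 fold changes to -0.07 in IMR-32, -0.04 in KELLY and -0.16 in SK-N-DZ, none of them called. FASN has the highest GC content of the set (65.3% in its longest transcript) and 8565 exon bases. The offset takes length and GC together, so the part of each was not tested. The IMR-32 call was also lost without BRM014 replicate 2 or DMSO replicate 1, and the KELLY call without BRM014 replicate 1 or DMSO replicate 1 and after thinning.

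Of the 35 genes, FASN also had the most counts in cells without label, and it ranked 12 among all genes. It had 60 and 43 counts in the unlabelled KELLY libraries, which is 8.86% of its 734 and 429 counts with label and DMSO, against 0.348% for all genes. The other 34 genes together had 21 unlabelled counts, 0.138% of their labelled counts, and 25 of the 35 had none. In an alternative chosen after seeing the data, each gene's mean unlabelled count was subtracted from every labelled KELLY library, without scaling for library totals. The KELLY value for FASN was then -0.44 (adjusted p = 0.0127).

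Of the remaining fatty acid genes, ELOVL6, the elongase of saturated chains, fell in IMR-32 from a mean of 87.2 to 48.2 CPM (-0.85, SE 0.27, adjusted p = 0.0217). That call was lost without BRM014 replicate 1, BRM014 replicate 2 or DMSO replicate 2, and ELOVL6 was not called in KELLY (0.32, SE 0.22) or SK-N-DZ (-0.11, SE 0.22). ACACA, which commits acetyl-CoA to fatty acids, was below 50 CPM in every vehicle and treated group and was not called. ACSS2, which makes acetyl-CoA from acetate, had at most 29 counts in a library and was not called.

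**Figure D3:**
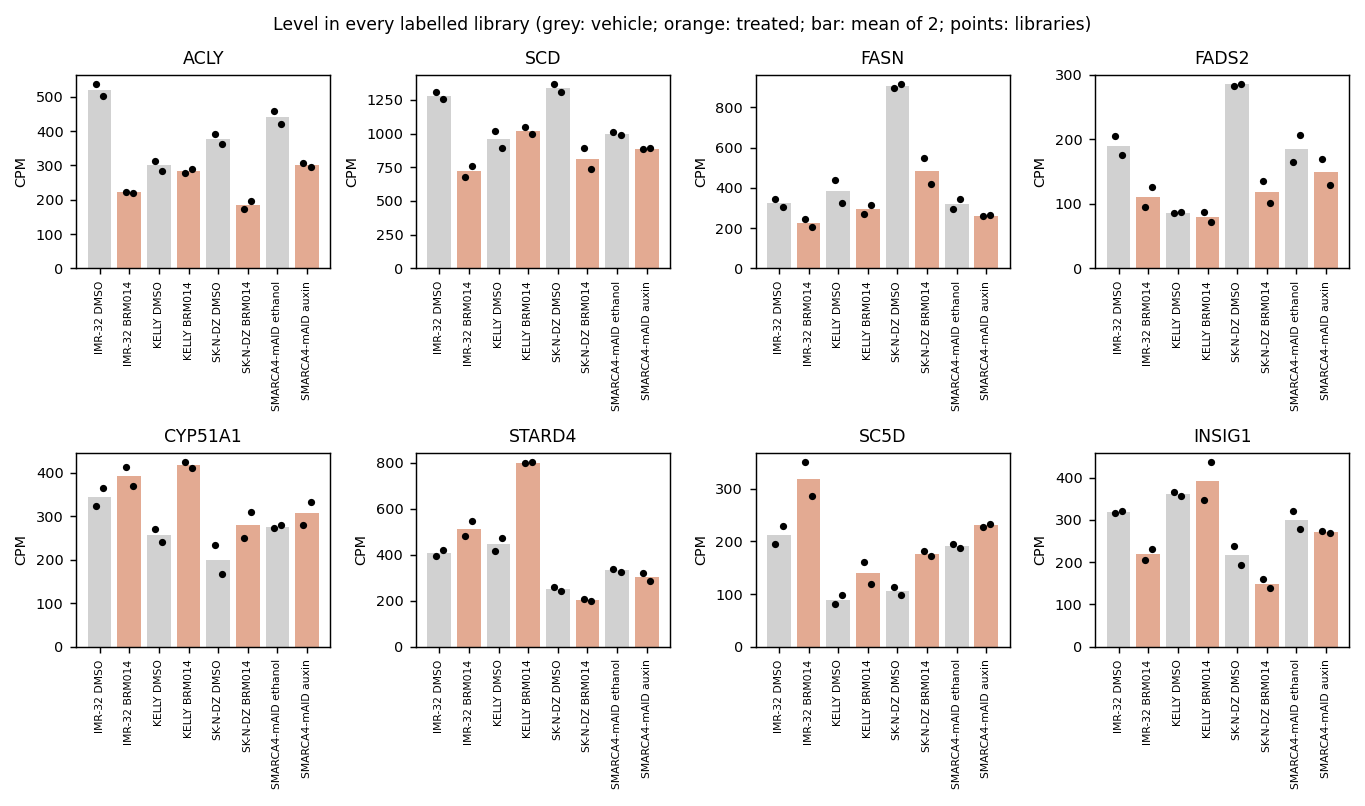
CPM of 8 genes in every labelled library (points; bars are means of 2 libraries; grey vehicle, orange treated; every y axis starts at 0). ACLY and SCD are lower with BRM014 in both libraries of IMR-32 and SK-N-DZ and overlap in KELLY, STARD4 is near 800 CPM with BRM014 in KELLY, and SC5D is higher with BRM014 in all 3 lines.

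Among the 19 sterol synthesis genes, 5 rose and 1 fell with BRM014 in KELLY, with a median log2 fold change of 0.33. In IMR-32, 1 rose and 4 fell (median -0.17), and in SK-N-DZ, 2 rose and 4 fell (median -0.26). Over all tested genes, 6.57% were called higher and 4.98% lower in KELLY, 6.26% and 6.57% in IMR-32, and 9.88% and 9.55% in SK-N-DZ. The 6 sterol calls in KELLY became 2 without BRM014 replicate 1, 4 without BRM014 replicate 2 or DMSO replicate 1, and 3 without DMSO replicate 2. In IMR-32 the 5 calls became 2 without either BRM014 library or DMSO replicate 1, and 3 without DMSO replicate 2, with the offset, or when the fit held these groups alone. In SK-N-DZ the 6 became 3 without DMSO replicate 1 and 4 without BRM014 replicate 2. The genes that rose in KELLY included HMGCS1, an early enzyme, and several late enzymes of the pathway.

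CYP51A1, which removes a methyl group from lanosterol, was 272 and 240 CPM in KELLY with DMSO and 425 and 411 with BRM014 (0.71, SE 0.13, adjusted p = 1.16e-05). MSMO1, the next methyl oxidase of the route, was 362 and 328 CPM with DMSO and 482 and 532 with BRM014 (0.56, SE 0.12, adjusted p = 0.000285). These calls held under all 13 other settings. CYP51A1 also rose in SK-N-DZ, from 233 and 168 to 251 and 311 CPM (0.49, SE 0.14, adjusted p = 0.00586), a call lost without BRM014 replicate 2 or DMSO replicate 2 and with the offset (0.34). In IMR-32 CYP51A1 was 323 and 365 CPM with DMSO and 414 and 371 with BRM014, and was not called (0.19, SE 0.13). An antisense gene, CYP51A1-AS1, shares exon bases with CYP51A1. MSMO1 was 466 and 415 against 578 and 493 CPM in IMR-32 (0.28, SE 0.12) and 398 and 336 against 342 and 322 CPM in SK-N-DZ (-0.14, SE 0.13), without a call in either; with the offset the SK-N-DZ value was -0.42 and was called.

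HMGCS1, the cytosolic HMG-CoA synthase of an early step of the pathway, rose in KELLY and fell in SK-N-DZ. It was 539 and 471 CPM with DMSO and 629 and 644 with BRM014 in KELLY (0.33, SE 0.11, adjusted p = 0.0252). In SK-N-DZ it was 608 and 522 CPM with DMSO and 471 and 423 with BRM014 (-0.34, SE 0.11, adjusted p = 0.0204). In IMR-32 it was 590 and 560 against 575 and 528 CPM, which overlapped (-0.06, SE 0.11). The KELLY call was lost without either BRM014 library or DMSO replicate 2, with upper-quartile factors and with the offset (0.19), and the SK-N-DZ call without BRM014 replicate 2 or DMSO replicate 1.

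SQLE, squalene epoxidase, rose in KELLY from 261 and 252 to 363 and 335 CPM (0.44, SE 0.12, adjusted p = 0.00565), a call lost without BRM014 replicate 1 or DMSO replicate 2. It was 310 and 282 against 360 and 357 CPM in SK-N-DZ (0.28, SE 0.12, adjusted p = 0.105) and 386 and 336 against 387 and 361 CPM in IMR-32 (0.05, SE 0.12). The treated SK-N-DZ libraries lay above their controls but the difference was not called.

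SC5D, a desaturase near the end of the pathway, was called higher in all 3 lines. It was 195 and 229 CPM with DMSO and 351 and 287 with BRM014 in IMR-32 (0.59, SE 0.16, adjusted p = 0.00534). In KELLY it was 80.9 and 97.4 CPM with DMSO and 161 and 119 with BRM014 (0.66, SE 0.17, adjusted p = 0.00327). In SK-N-DZ it was 113 and 98.0 CPM with DMSO and 182 and 172 with BRM014 (0.75, SE 0.17, adjusted p = 0.000538). No control library reached a treated one within a line, and the 95% intervals of the differences between lines were -0.39 to 0.53 for KELLY minus IMR-32 and -0.31 to 0.61 for SK-N-DZ minus IMR-32. The SK-N-DZ call held under all 13 other settings; those of IMR-32 and KELLY were lost without BRM014 replicate 1 or DMSO replicate 1 of the line.

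ACAT2, the cytosolic thiolase that joins acetyl-CoA units, fell in IMR-32 and SK-N-DZ. It was 137 and 72.3 CPM with DMSO and 30.9 and 35.1 with BRM014 in IMR-32 (-1.68, SE 0.31, adjusted p = 2.24e-05), which held under all 13 other settings. In SK-N-DZ its mean went from 127 to 63.2 CPM (-1.0, SE 0.27, adjusted p = 0.00339), a call lost without BRM014 replicate 1 or DMSO replicate 1. In KELLY it was 48.0 and 47.9 against 40.5 and 47.4 CPM and was not called (-0.12, SE 0.28). ACAT2 shares exon bases with TCP1 and SOD2 on the other strand, so its counts could include theirs.

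AACS, which activates acetoacetate for lipid synthesis, fell in KELLY and SK-N-DZ. It was 81.5 and 63.3 CPM with DMSO and 23.9 and 12.6 with BRM014 in SK-N-DZ (-1.99, SE 0.38, adjusted p = 3.19e-05), under all 13 other settings. In KELLY it went from 37.2 and 29.7 to 14.4 and 17.9 CPM (-1.05, SE 0.37, adjusted p = 0.0469). The KELLY call held under 4 of 13 other settings and was lost when any 1 of the 4 libraries was left out. In IMR-32 AACS was not called (-0.38, SE 0.37). A pseudogene of AACS is listed in the files, and reads of the 2 could be shared.

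IDI1, an isomerase of the isoprenoid units, fell in IMR-32 from 349 and 335 to 262 and 188 CPM (-0.61, SE 0.15, adjusted p = 0.00153), a call lost without BRM014 replicate 2. NSDHL, a sterol dehydrogenase, fell in SK-N-DZ from a mean of 51.6 to 18.7 CPM (-1.45, SE 0.43, adjusted p = 0.0086), lost without BRM014 replicate 1 or DMSO replicate 1. Scarce genes gave less firm calls. MVK, mevalonate kinase, went from 28 and 23 counts to 4 and 5 in IMR-32 (-1.67, SE 0.56, adjusted p = 0.0325), and LSS, lanosterol synthase, from 20 and 11 counts to 2 and 1. With so few counts the LSS ratio of BRM014 to DMSO was 0.171, with an exact binomial 95% interval of 0.0334 to 0.547 that covers counting error only. MVK and LSS both lost their calls when any 1 of the 4 libraries was left out and with the offset.

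The other sterol genes, PMVK, MVD, FDPS, FDFT1, TM7SF2, HSD17B7, EBP and DHCR7, were called in no treatment, although with the offset FDPS (0.98) and DHCR7 (0.78) were called higher in KELLY. PMVK and TM7SF2 had 3 counts or fewer in a whole IMR-32 group. Reads of FDPS and HSD17B7 can match pseudogenes, 1 of which is listed in the files for each.

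The 8 transport and regulation genes did not move together: 2 rose and 1 fell in IMR-32, 1 rose in KELLY, and 2 fell in SK-N-DZ. These are 37.5%, 12.5% and 25% of the 8, against 12.8%, 11.6% and 19.4% of all tested genes. In KELLY and SK-N-DZ the share was thus near that of all genes. STARD4, a soluble carrier of cholesterol between membranes, rose in KELLY from 415 and 472 to 798 and 802 CPM (0.85, SE 0.11, adjusted p = 6.43e-10), a call that held under all 13 other settings. In IMR-32 it was 394 and 418 CPM with DMSO and 479 and 544 with BRM014 (0.33, SE 0.12, adjusted p = 0.0427), lost when any 1 of the 4 libraries was left out, and 0.02 with the offset. In SK-N-DZ it was 259 and 243 against 209 and 200 CPM and was not called (-0.30, SE 0.13), but was called lower with the offset (-0.78). The treated libraries thus lay above their controls in 2 lines and below them in SK-N-DZ.

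INSIG1, the sterol-sensing anchor whose promoter is shown above, fell in IMR-32 from 317 and 320 to 206 and 232 CPM (-0.54, SE 0.14, adjusted p = 0.005) and in SK-N-DZ from 239 and 193 to 160 and 138 CPM (-0.54, SE 0.15, adjusted p = 0.00478). In KELLY it was 365 and 357 against 348 and 437 CPM, which overlapped (0.12, SE 0.12). The IMR-32 call was lost without BRM014 replicate 1, and the SK-N-DZ call without BRM014 replicate 2 or DMSO replicate 1.

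The pair of SREBF genes differed. SREBF1, the regulator more tied to fatty acid genes, fell in SK-N-DZ from 142 and 186 to 74.4 and 80.8 CPM (-1.08, SE 0.26, adjusted p = 0.000944). Its longest transcript holds 62.8% GC. With the length and GC offset the value was -0.36, not called, and the call was also lost without DMSO replicate 2. SREBF1 was 35.3 and 20.1 against 11.8 and 25.3 CPM in IMR-32 (-0.59, SE 0.39) and 94.7 and 76.8 against 66.6 and 66.6 CPM in KELLY (-0.37, SE 0.25). SREBF2, more tied to sterol genes, was 176 and 161 against 143 and 197 CPM in IMR-32, 274 and 240 against 269 and 362 in KELLY, and 251 and 284 against 231 and 298 in SK-N-DZ. The SREBF2 values overlapped in each line and none was called, although with the offset it was called higher in KELLY (0.50) and in SK-N-DZ (0.46, against -0.01 without it).

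ABCA1, the pump that exports cholesterol to lipoproteins, was close to absent in IMR-32 with DMSO, at 4 and 0 counts (2.94 and 0 CPM), and had 8 and 14 counts with BRM014 (11.8 and 19.7 CPM). The fitted log2 fold change was 3.21 (SE 0.80, adjusted p = 0.00231), lost without BRM014 replicate 2 or DMSO replicate 2, and 7.36 without DMSO replicate 1, which leaves a control with 0 counts. In KELLY it had 6 and 1 counts with DMSO and 5 and 1 with BRM014 (3.60 and 0.761 against 3.27 and 0.640 CPM). In SK-N-DZ, where it was abundant, it was 83.2 and 86.5 against 65.1 and 102 CPM, without a call (-0.02, SE 0.40). INSIG2, SCAP and NPC1 were called in no treatment.

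The difference in response between lines was tested directly. The BRM014 effect in KELLY was above that in IMR-32 for 8 genes and below it for none, where 3.28% of all genes were called (2.08% above and 1.21% below). These were SCD (difference of log2 fold changes 0.93, SE 0.13, adjusted p = 4.6e-08), ACLY (1.15, SE 0.18, adjusted p = 9.31e-07), ELOVL6, ACAT2, LSS, IDI1, INSIG1 and STARD4. The effect in SK-N-DZ was below that in KELLY for 8 genes and above it for none, against 3.9% of all genes (1.63% above and 2.27% below). Here they were STARD4 (-1.15, SE 0.17), ACLY (-0.95, SE 0.18), SCD (-0.81, SE 0.13), FADS1 (-1.26, SE 0.28), FADS2 (-1.15, SE 0.26), HMGCS1 (-0.67, SE 0.15), MSMO1 (-0.70, SE 0.17) and INSIG1 (-0.66, SE 0.19). Both tests use the KELLY libraries and are not independent of each other. Between SK-N-DZ and IMR-32, STARD4 and ABCA1 differed (2 genes, lower in SK-N-DZ), against 2.61% of all genes (1.45% above and 1.17% below). Both calls were lost without IMR-32 BRM014 replicate 2, SK-N-DZ BRM014 replicate 1 or SK-N-DZ DMSO replicate 1. STARD4 was also lost without IMR-32 DMSO replicate 1 or SK-N-DZ BRM014 replicate 2 and when the fit held these groups alone, and ABCA1 without DMSO replicate 2 of either line. The ABCA1 difference, -3.23, was -7.38 without IMR-32 DMSO replicate 1 and -2.4 without IMR-32 DMSO replicate 2. The number of genes called between KELLY and IMR-32 fell to 3 without KELLY BRM014 replicate 2 and after thinning, to 4 without IMR-32 BRM014 replicate 1 or DMSO replicate 1, and to 5 without IMR-32 or KELLY DMSO replicate 2; between SK-N-DZ and KELLY it fell to 5 without SK-N-DZ DMSO replicate 1. SCD and ACLY kept both differences from KELLY under all 17 other settings, whereas STARD4 kept that between KELLY and IMR-32 under 7 of them. For CYP51A1 and SQLE, called in KELLY, the differences from IMR-32 were 0.51 (95% interval 0.15 to 0.88) and 0.40 (0.05 to 0.74) and did not pass the adjusted threshold.

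Auxin treatment of the degron line changed 1 of the 35 genes past the threshold. ACLY fell from 460 and 421 CPM with ethanol to 307 and 295 with auxin (-0.55, SE 0.12, adjusted p = 0.00134), a call lost without ethanol replicate 1 or auxin replicate 2. AACS, 54.4 and 45.9 CPM against 27.7 and 20.6, had the next smallest p (-1.06, SE 0.34, adjusted p = 0.0879) and was called with DESeq2 and when the fit held the libraries of this comparison alone. SCD was 1010 and 989 CPM with ethanol and 884 and 894 with auxin, without a call (-0.17, SE 0.09). HMGCS1 was 482 and 392 against 448 and 473 CPM, SQLE 319 and 301 against 287 and 285, and INSIG1 322 and 278 against 274 and 268. SREBF1 was 40.0 and 37.7 against 35.1 and 28.3 CPM, SREBF2 152 and 158 against 140 and 129, and ABCA1 4.82 and 3.77 against 0 and 3.86. None of these was called. The 8 fatty acid genes had a median log2 fold change of -0.28, and their sum was 2240 and 2240 CPM with ethanol and 1940 and 1800 with auxin.

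The BRM014 effect in IMR-32 and the auxin effect have separate controls, and their difference was called for 3 genes, against 1.95% of all genes (1.06% above and 0.887% below). SCD fell further with BRM014 (difference -0.67, SE 0.13, adjusted p = 0.000357), under all 17 other settings. ACLY fell further as well (-0.68, SE 0.17, adjusted p = 0.0167), a call lost with the offset and without IMR-32 BRM014 replicate 1, IMR-32 DMSO replicate 1, ethanol replicate 2 or auxin replicate 1. ABCA1 differed by 4.24 (SE 1.16, adjusted p = 0.0292) on 0 to 14 counts a library; this value was 8.70 without IMR-32 DMSO replicate 1, and the call was lost without IMR-32 BRM014 replicate 2, IMR-32 DMSO replicate 2, ethanol replicate 1 or auxin replicate 1, after thinning, and when the fit held these groups alone. A single gene was called without auxin replicate 1. Agent, vehicle, engineering of the line and SMARCA2, which auxin does not target here, differ together between these comparisons and cannot be told apart.

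**Figure D4:**
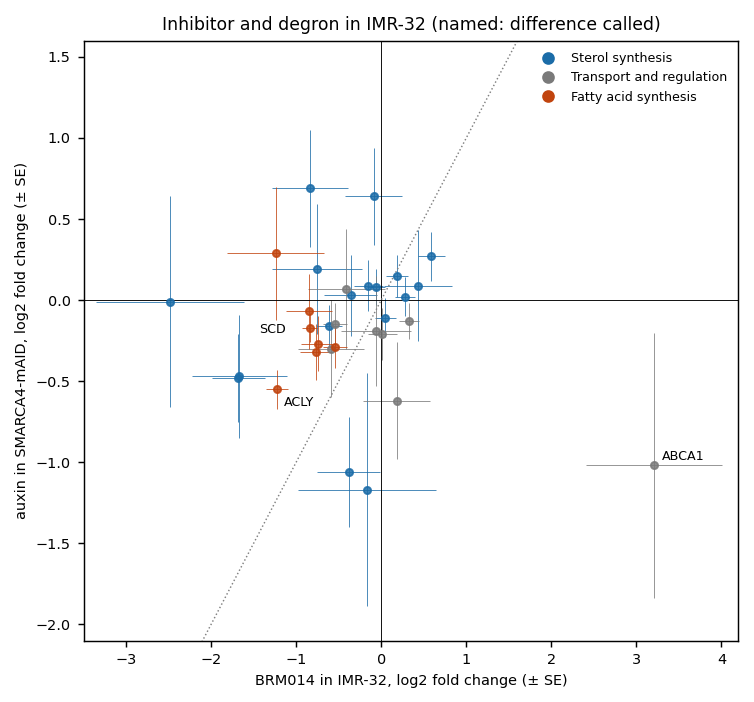
Log2 fold change with BRM014 in IMR-32 (x axis) against auxin in SMARCA4-mAID cells (y axis), with bars of 1 standard error and a dotted line of equal change, for 32 genes; PMVK, TM7SF2 and ACSS2, with standard errors above 1, are left out. ACLY and SCD lie to the left of the line, at -1.23 and -0.84 with BRM014 and -0.55 and -0.17 with auxin.

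Between vehicle-treated lines, more of the 35 genes were called than with any treatment. Compared with IMR-32, 8 genes were higher and 10 lower in KELLY (39.6% of all genes were called, 18.1% higher and 21.6% lower), and 16 were higher and 6 lower in SK-N-DZ (44.1% of all genes, 21.2% higher and 22.9% lower). SK-N-DZ exceeded KELLY for 15 genes and was lower for 3 (31.8% of all genes, 16.6% higher and 15.2% lower), and 7 of the 8 fatty acid genes were among the 15. Medium differs between IMR-32 and the other lines and cannot be told apart from the line.

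The 6 genes with the widest range over the DMSO groups were ABCA1, TM7SF2, MVD, ACSS2, PMVK and SREBF1. ABCA1 was 83.2 and 86.5 CPM in SK-N-DZ, against 2.94 and 0 in IMR-32 and 3.60 and 0.761 in KELLY. KELLY and IMR-32 did not differ in ABCA1 beyond their spread, and SK-N-DZ lay 35.2-fold above KELLY (log2 5.14, SE 0.58, adjusted p = 3.19e-12). With 6 and 1 counts in KELLY the size of that step rests on few reads: the log2 value was 6.63 without KELLY replicate 1 and 4.52 without KELLY replicate 2, and stayed called. SREBF1 was lowest in IMR-32 (35.3 and 20.1 CPM), higher in KELLY (94.7 and 76.8) and highest in SK-N-DZ (142 and 186), and each step was called. MVD, the decarboxylase of the mevalonate route, was 5.15 and 4.58, 21.0 and 12.9, and 44.9 and 69.4 CPM in the same order, again with each step called.

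TM7SF2, a sterol reductase, had 1 count in each IMR-32 library, 29 and 14 in those of KELLY and 14 and 22 in those of SK-N-DZ, a KELLY to IMR-32 ratio of 17.7 with an exact binomial 95% interval of 4.61 to 151. It shares exon bases with VPS51 on the same strand. PMVK had 1 and 2, 10 and 12, and 14 and 13 counts, and ACSS2 8 and 11, 6 and 0, and 15 and 29. The ratios of PMVK to IMR-32 were 6.03 (1.81 to 31.5) in KELLY and 6.33 (1.95 to 32.6) in SK-N-DZ.

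Among abundant genes, FASN was 898 and 918 CPM in SK-N-DZ against 343 and 305 in IMR-32 and 440 and 326 in KELLY, while ACLY was highest in IMR-32 (538 and 502 CPM) and lowest in KELLY. FADS1 and FADS2 were lowest in KELLY, where neither was called with BRM014. SCD, 1020 and 892 CPM in KELLY, was lower there than in both other lines. INSIG1 was 365 and 357 CPM in KELLY, 317 and 320 in IMR-32 and 239 and 193 in SK-N-DZ, where it was called lower than in both. SQLE was highest in IMR-32, SREBF2 was lowest there, and HMGCS1 was not called between any DMSO groups, although with the offset it was called between SK-N-DZ and each of the other lines. Per kilobase of exon, SCD led in every line, at 240 CPM per kb in IMR-32, 179 in KELLY and 250 in SK-N-DZ. The spread from SCD down to ABCA1, at 0.131 CPM per kb in IMR-32, is the range of levels in that line. Several of these calls ended with the length and GC offset: FASN in SK-N-DZ against IMR-32 (0.23), SREBF1 in SK-N-DZ against KELLY (0.33), SREBF2 against IMR-32 in KELLY (0.32) and SK-N-DZ (0.04), MVD (0.97) and SCD (-0.21) in KELLY against IMR-32, and ACLY in SK-N-DZ against KELLY. The MVD step from IMR-32 to KELLY was also lost without either IMR-32 library or KELLY replicate 1, the MVD and SREBF1 steps from KELLY to SK-N-DZ without SK-N-DZ replicate 2, the ACLY step without KELLY replicate 2 or SK-N-DZ replicate 1, and SQLE in SK-N-DZ against IMR-32 (-0.29) without IMR-32 replicate 1 or SK-N-DZ replicate 2. The SQLE call held under 6 of 13 other settings, and was also lost with either other set of scaling factors, DESeq2, thinning and the offset (-0.18). For PMVK the call against IMR-32 was lost, in either line, when any 1 library of the pair of groups was left out, and for TM7SF2 in SK-N-DZ without IMR-32 replicate 1.

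**Figure D5:**
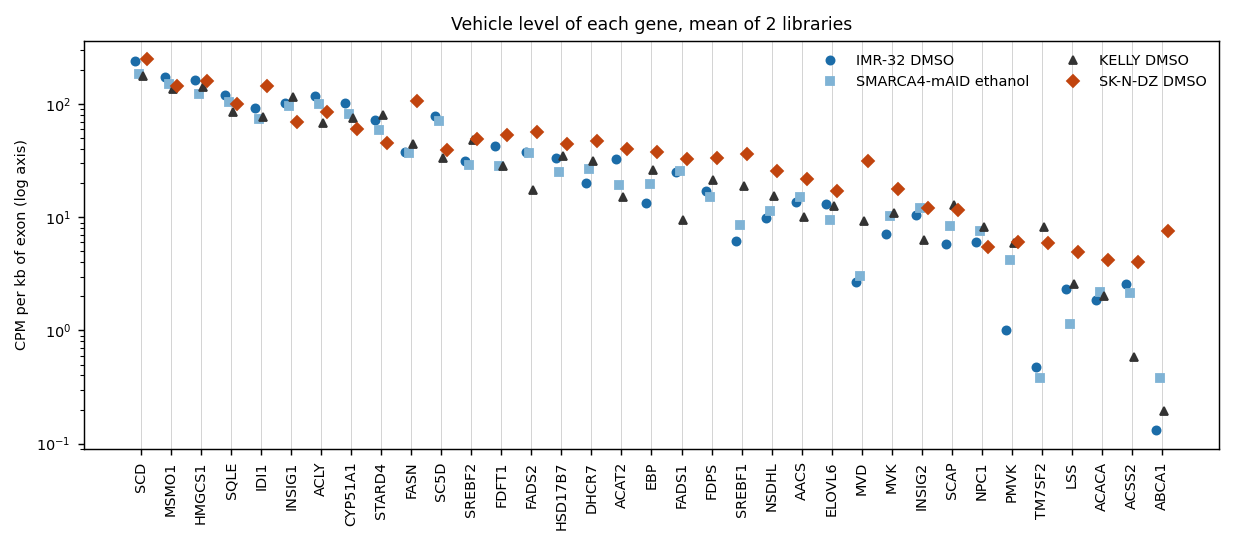
Vehicle level of each gene as CPM per kilobase of exon (log axis; mean of 2 libraries per group; genes in falling order of their mean over the groups). ABCA1 in SK-N-DZ, at 7.54 CPM per kb, stands far above 0.131 in IMR-32 and 0.194 in KELLY.

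In the engineered line with ethanol, HMGCS1 (437 against 575 CPM), FDFT1 (131 against 198) and SCD (997 against 1280) were lower than in wild-type IMR-32 with DMSO. These are 3 of 35 genes (8.57%), near the share of all genes, 6.16% (2.67% higher and 3.49% lower). Engineering and vehicle cannot be told apart there, and leaving out single libraries left 0 to 2 of these 3 calls. None of them was left without ethanol replicate 2, where IDI1 was called instead.

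Of 44 further symbols of sterol and lipid metabolism, 43 were listed in the files and 39 tested. With BRM014, 1 rose and 3 fell in IMR-32, 3 rose and 1 fell in KELLY, and 5 rose and 6 fell in SK-N-DZ; with auxin 1 rose. These are 10.3%, 10.3%, 28.2% and 2.56% of the 39, against 12.8%, 11.6%, 19.4% and 2.19% of all tested genes. MYLIP, a ubiquitin ligase that removes lipoprotein receptors from the cell surface, was higher in all 4, with log2 fold changes of 1.67 (SE 0.17) in IMR-32, 0.96 (SE 0.25) in KELLY, 1.38 (SE 0.32) in SK-N-DZ and 0.80 (SE 0.16) with auxin. Its KELLY call was lost without BRM014 replicate 1 or DMSO replicate 1, after thinning and when the fit held these groups alone, and its auxin call without auxin replicate 2. LRP8, a lipoprotein receptor, fell in IMR-32 (-1.17, SE 0.18) and SK-N-DZ (-1.78, SE 0.25), as did TMEM97, a sterol-responsive membrane protein (-0.54, SE 0.16, and -0.96, SE 0.15). The TMEM97 call in IMR-32 was lost without BRM014 replicate 1 or DMSO replicate 1. In IMR-32 MID1IP1, an activator of acetyl-CoA carboxylase, also fell (-0.73, SE 0.26), and lost its call when any 1 of the 4 libraries was left out. MID1IP1 was called lower in SK-N-DZ too (-0.72, SE 0.22), where its call was not followed under the other settings. It was not called in KELLY (-0.51, SE 0.21). In KELLY LBR, a sterol reductase of the nuclear envelope, fell (-0.46, SE 0.11), and LIPA, the lysosomal lipase (1.24, SE 0.39), and ACSL3, an acyl-CoA synthetase (0.48, SE 0.16), rose. LIPA lost its call without BRM014 replicate 2 or DMSO replicate 2 and ACSL3 when any 1 of the 4 libraries was left out, with no filter, upper-quartile factors, thinning and the offset (0.23). ACSL3 also rose in SK-N-DZ (0.72, SE 0.17), a call lost with the offset (0.40).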

How the data were processed

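Newly made RNA was measured in 16 labelled and 2 unlabelled libraries, 2 per group. Raw counts per gene were deposited by the authors, named as conversion counts. The submitters' processing notes name HISAT, HTSeq, DESeq2 and the build hg38, with no version. Neither the rule for counting a read nor the annotation or strandedness is given in the sources used here, so overlapping genes cannot be separated. The 5 summary lines of each file were left out; reads without a feature made up 46.4% to 57.4% in labelled and 65.2% and 66.7% in unlabelled libraries. Replicates differed beyond sampling noise (chi-square per degree of freedom 2.36 to 3.31). As the labels do not name separate cultures, the p-values reflect library-to-library spread only, possibly technical.

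Counts were tested with edgeR 4.0.16 in R 4.3.3: TMM factors, filterByExpr, a group-means model over the 16 labelled libraries (8 residual degrees of freedom, biological coefficient of variation 0.143), quasi-likelihood tests and Benjamini-Hochberg adjustment over 12853 genes. CPM are each library's counts scaled to a common total over tested genes after TMM; exon lengths, GC and coordinates come from GENCODE v29. Members and lists were chosen with earlier results of these data known. Values in every library are given for called genes (at most 8 with the smallest p per treatment) and for 8 fixed genes. At most 4 further pathway genes are named per treatment, plus MID1IP1 in SK-N-DZ and KELLY. Alternatives were other scaling factors, DESeq2 1.42.0, no or a stricter filter (20 counts), thinning, the groups of a comparison alone, a replicate block, a length and GC offset, and leaving out each library. The script was tested on simulated data.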

Additional observations from a re-analysis of the deposited data

Results flagged for a closer look

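The response to BRM014 differed between lines, by the test of the difference itself (edgeR quasi-likelihood, Benjamini-Hochberg adjusted p below 0.05), for the following genes, given as differences of log2 fold changes with 2 libraries a group. KELLY exceeded IMR-32 in SCD (0.93), ACLY (1.15) and ELOVL6 (1.17) of fatty acid synthesis, in IDI1 (0.71), LSS (3.46, on 3 counts with BRM014 in IMR-32) and ACAT2 (1.55) of sterol synthesis, and in STARD4 (0.52) and INSIG1 (0.66). SK-N-DZ was below IMR-32 in STARD4 (-0.63) and ABCA1 (-3.23, on 4 counts with DMSO in IMR-32). SK-N-DZ was below KELLY in HMGCS1 (-0.67), MSMO1 (-0.70), STARD4 (-1.15), INSIG1 (-0.66), SCD (-0.81), ACLY (-0.95), FADS1 (-1.26) and FADS2 (-1.15). SCD and ACLY differed from KELLY in both lines and STARD4 differed in all 3 pairs, but less firmly in those with IMR-32. Of 17 other settings, the STARD4 call held under 7 for KELLY against IMR-32 and 11 for SK-N-DZ against IMR-32. Pairs that share a line share its libraries. Under every alternative setting listed under processing the differences of SCD and ACLY (KELLY against IMR-32) and of STARD4, SCD, ACLY and FADS2 (SK-N-DZ against KELLY) stayed called. Library totals with BRM014 were lower in IMR-32 and SK-N-DZ and not in KELLY; after thinning to equal totals, 3 of the 8 differences between KELLY and IMR-32 were called.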

How the results depend on the processing

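With 2 libraries a group, calls near the threshold depended on single libraries. Called under every other setting were 3 of 14 genes in IMR-32 (ACAT2, SCD, ACLY), 3 of 8 in KELLY (CYP51A1, MSMO1, STARD4), 6 of 13 in SK-N-DZ (SC5D, AACS, SCD, ACLY, FADS1, FADS2) and 0 of 1 with auxin. Leaving out 1 library gave 922 to 1110 called genes and 6 to 9 of the 35 in IMR-32, 872 to 1160 and 4 to 6 in KELLY, 1622 to 1893 and 9 to 12 in SK-N-DZ, and 131 to 158 and 0 to 1 with auxin. For differences of effects the ranges were 293 to 408 and 3 to 6 (KELLY minus IMR-32), 238 to 315 and 0 to 2 (SK-N-DZ minus IMR-32), 340 to 433 and 5 to 10 (SK-N-DZ minus KELLY), and 140 to 201 and 1 to 3 (BRM014 in IMR-32 minus auxin). For vehicle levels they were 3739 to 4321 and 12 to 15 (KELLY minus IMR-32), 4287 to 4694 and 17 to 22 (SK-N-DZ minus IMR-32), 2931 to 3150 and 12 to 18 (SK-N-DZ minus KELLY), and 372 to 485 and 1 to 3 (SMARCA4-mAID minus IMR-32). A lone library was assumed to vary like the other groups.

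The length and GC offset gave 9 calls of the 35 in IMR-32 and 10 for the KELLY minus IMR-32 DMSO level. It turned the sign of SREBF2 in SK-N-DZ (0.46), and of SCAP (-0.17) and FADS2 (-0.23) in the SK-N-DZ minus IMR-32 DMSO level; the cause was not tested. In KELLY it gave 8 genes higher and 0 lower. Thinning gave 185 called genes with auxin and 3 of the 35 for KELLY minus IMR-32. DESeq2, and the groups of the comparison alone, each gave 2 of the 35 with auxin; fitting those groups alone gave 1 for SK-N-DZ minus IMR-32 and 5 for the vehicle level of SMARCA4-mAID minus IMR-32. Upper-quartile factors turned the KELLY calls from 845 higher and 640 lower to 694 and 793, and the offset those of the KELLY minus IMR-32 effect from 267 and 155 to 207 and 188. Upper-quartile factors moved the median of all genes from 0.01 to 0.13 in the vehicle level of KELLY against IMR-32 and from 0.03 to 0.12 in that of SK-N-DZ.

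Replicate numbers did not pair the libraries (correlation of deviations -0.03 to 0.01). With the replicate block 14, 7, 13 and 1 of the 35 were called in IMR-32, KELLY, SK-N-DZ and with auxin; AACS in KELLY was lost. Of the 35, genes with few counts, such as PMVK, TM7SF2, LSS, ACSS2 and ABCA1 outside SK-N-DZ, are limited by depth.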
